A study of Mus musculus with 4 samples.

Results

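The choroid plexus is a sheet of secretory epithelium that hangs in the brain ventricles, and 9 genes that mark it were followed across the brains of 2 inbred mouse strains and their hybrids. The genes were Ttr, Kl, Folr1, Clic6, Kcne2, Otx2, Aqp1, Sostdc1 and Prlr, taken by gene symbol from the 51905 genes in the tables, of which 45171 were kept after short transcripts and small RNAs were removed. Each symbol matched 1 gene identifier, and together they had 45 annotated transcripts, of which 31 were above 0 in at least 1 library and 14 were at 0 in all 4.

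The groups were CAST/EiJ x C57BL/6 hybrids (F1r), C57BL/6 x CAST/EiJ hybrids (F1i), CAST/EiJ mice (CAST, an inbred strain derived from wild Mus musculus castaneus) and C57BL/6 mice (B6, a standard laboratory strain). All were labelled wild type, no treatment is given, and the labels state neither which parent of a cross was the dam nor the ages of the mice. RNA from the left hemispheres of 5 mice, with no word on whether the plexus was kept, was pooled for each group and sequenced as 1 library, so no value below has an error, a replicate check or a p-value, and a difference between groups cannot be told apart from a difference between pools. Values are FPKM, fragments scaled by the authors to transcript length and library size, summed over the transcripts of a gene.

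Choroid plexus epithelium makes most of the cerebrospinal fluid by moving ions and water from blood into the ventricles, and it secretes carrier proteins and hormones into that fluid. Transthyretin, the product of Ttr, carries thyroid hormone and retinol-binding protein and is the best known marker of this epithelium in the brain. The homeobox factor OTX2 is required to form the choroid plexus and to maintain it. The level of such a gene in a whole hemisphere depends both on how much plexus was in the tissue and on how much RNA its cells held, and these cannot be told apart in pooled tissue.

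Of the 9 genes, 8 were lower in value in CAST than in B6, and Sostdc1 was higher. The largest difference was in Kl, at 35.6% of the B6 level, followed by Clic6 at 43.1% and Kcne2 at 48.9%, the 3 genes at least 2-fold lower in FPKM without an added constant, as were 3.79% of the 13739 genes compared. On log2(FPKM + 1), the scale used for all differences here because it damps low values, Kl was the only gene at least 2-fold apart, against 2.25% of 13739 genes that were that much lower in CAST. None was 2-fold higher, against 2.83% of all genes. The median difference of the 9 genes was -0.49, and that of all genes compared was 0.04. All 9 had a mean of at least 1 FPKM over the 4 libraries and entered the comparisons. Across all genes, 44.6% were lower in value in CAST. B6 was the highest of the 4 libraries for 7 of the 9 genes, against 30.0% of all genes, and B6 was highest with CAST lowest for 5, against 18.8%. The counts of 8 lower and 1 higher were the same when FPKM was scaled by median ratios or to a common total. Under the common total Aqp1 was nearly level, at -0.02. The 44.6% of all genes, and the counts and shares with B6 highest or CAST lowest, hold for FPKM as deposited. They were not taken under these scalings, and the totals of the libraries differ. The common total moved the median of all genes to 0.34 and that of the 9 to -0.25, and under it none of the 9 was 2-fold lower, with Kl at -0.87, while 1.36% of all genes were 2-fold lower and 4.52% higher. Genes of other lists are called measured below where they too had a mean of at least 1 FPKM. Their 2-fold counts between CAST and B6 are to be read beside the 2.25% of all genes lower and 2.83% higher.

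The promoters of Kl and Kcne2, both far below B6 in CAST, are set here beside that of Aqp1, the gene with the smallest difference, to show the sequence these genes start from. They are the 250 bases before the RefSeq start (GRCm38.p6, plus strand), chr5:150952357-150952606 for Kl, chr16:92292139-92292388 for Kcne2 and chr6:55336049-55336298 for Aqp1, and capitals mark the GC box GGGCGG on either strand.
Kl: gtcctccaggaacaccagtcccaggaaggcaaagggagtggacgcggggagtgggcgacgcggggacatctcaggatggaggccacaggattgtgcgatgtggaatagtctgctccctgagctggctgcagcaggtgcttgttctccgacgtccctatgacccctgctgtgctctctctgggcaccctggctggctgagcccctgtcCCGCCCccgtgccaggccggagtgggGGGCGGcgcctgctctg
Kcne2: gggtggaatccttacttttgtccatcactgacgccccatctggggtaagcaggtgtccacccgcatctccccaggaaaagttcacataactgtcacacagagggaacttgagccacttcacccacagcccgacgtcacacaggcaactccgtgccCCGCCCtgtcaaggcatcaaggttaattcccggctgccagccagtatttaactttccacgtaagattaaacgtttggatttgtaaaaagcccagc
Aqp1: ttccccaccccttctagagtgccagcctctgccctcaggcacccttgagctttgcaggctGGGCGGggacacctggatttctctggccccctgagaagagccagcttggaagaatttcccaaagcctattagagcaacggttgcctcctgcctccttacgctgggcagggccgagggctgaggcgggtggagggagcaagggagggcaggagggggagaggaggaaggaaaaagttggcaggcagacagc
GC content was 66.8% for Kl, 52.4% for Kcne2 and 62.0% for Aqp1, and the GC box occurred 2 times in Kl and 1 time in each of the others. Of 32851 RefSeq promoters cut to the same 250 bases, 32.7% held it. A second RefSeq promoter listed for Kcne2, chr16:92295366-92295615, is not printed here. That promoter had a GC content of 48.0% and held no GC box. None of the 3 printed promoters held TATAAA, present in 12.4% of all, or TAATCC, present in 6.25%. TAATCC is the core bound by OTX2 and related homeobox factors, and both were searched on both strands. RefSeq promoters were examined for 5 of the 9 genes, and those of Ttr, Folr1, Clic6 and Sostdc1 were not searched. Among all promoters examined for the 5, TAATCC was found only upstream of the third annotated start of Otx2 itself, 211 bases before it. A match or its absence describes these letters of the reference build only. No CAST sequence was examined, and a part of these letters in the strain differences was not tested.

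**Figure D1:**
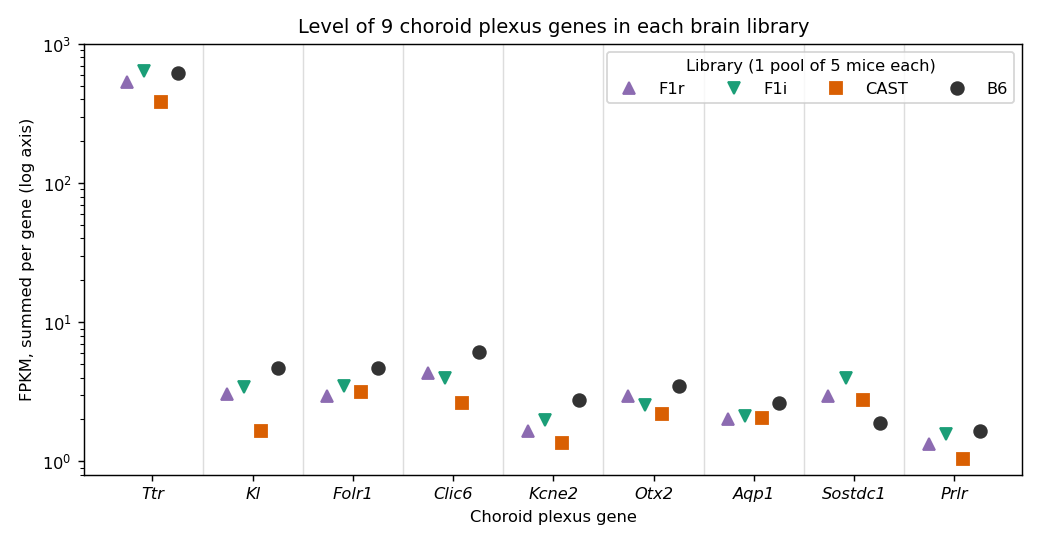
Summed FPKM (log axis) of the 9 choroid plexus genes in the F1r, F1i, CAST and B6 libraries, 1 point per library and no error bars because each is 1 pool of 5 mice. Ttr sits between 381 and 636 FPKM and the other 8 genes between 1.05 and 6.13.

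The secreted carrier Ttr (chromosome 18, 20665280 to 20674321, GRCm38) was at 529.7 FPKM in F1r, 636 in F1i, 381 in CAST and 621 in B6. CAST was the lowest library, F1i was at 102% of B6, and F1r lay between CAST and B6. The CAST minus B6 difference was -0.70. Ttr alone made up 95.7% to 96.5% of the summed FPKM of the 9 genes in every library, while the other 8 genes summed to 21.2 FPKM in F1r, 23.1 in F1i, 16.8 in CAST and 27.9 in B6. F1i was thus above B6 for Ttr and below B6 for the sum of the others. Per 1000 FPKM of Ttr, Kl was at 5.74 FPKM in F1r, 5.37 in F1i, 4.34 in CAST and 7.49 in B6, whereas Otx2 was at 5.55 in F1r, 3.999 in F1i, 5.73 in CAST and 5.61 in B6. Set against Ttr, CAST stayed below B6 for Kl, Clic6 and Kcne2 and was above it for Aqp1, Sostdc1 and the Folr1 sum. Otx2 and Prlr were nearly level in the strains, Prlr at 2.74 in CAST and 2.68 in B6. A short transcript, described below, made up 62.4% of the Folr1 sum in CAST.

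Kl (chromosome 5, 150952607 to 150993817) encodes klotho, a membrane protein that serves as the co-receptor for the hormone FGF23 and is also shed into the cerebrospinal fluid. It was at 3.04 FPKM in F1r, 3.41 in F1i, 1.65 in CAST and 4.65 in B6, so both hybrids lay between the strains. The CAST minus B6 difference was -1.09. At least 98.8% of its FPKM in each library was the transcript of 5118 bases that encodes 1014 residues, and 1.95% of the 31-base words of its transcripts recur in other genes. Among 8 measured genes of the klotho and FGF23 pathway none was 2-fold apart between CAST and B6 (median 0.15), and Fgfr3, a receptor for FGFs, was at 33.0 FPKM in F1r, 34.6 in F1i, 40.2 in CAST and 28.7 in B6. Fgf23 itself was at no more than 0.107 FPKM in any library.

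Clic6 (92485736 to 92541243) and Kcne2 (92292389 to 92298129) lie on chromosome 16 with 187606 bases between them. Clic6, a member of the chloride intracellular channel family, was at 4.34 FPKM in F1r, 3.99 in F1i, 2.64 in CAST and 6.13 in B6. Its CAST minus B6 difference of -0.97 fell just short of 2-fold, and passed it with median-ratio scaling (-1.02) or an added constant of 0.1 (-1.18). Kcne2, a small accessory subunit of potassium channels, was at 1.65 FPKM in F1r, 1.99 in F1i, 1.35 in CAST and 2.75 in B6, a CAST minus B6 difference of -0.68. Both genes had the order CAST, then the hybrids, then B6. Of the 3 measured relatives of Clic6, Clic4 passed the 2-fold rule at 17.4 FPKM in each hybrid, 10.9 in CAST and 29.1 in B6. None of 6 measured KCNE family members and partners passed it (median -0.01), and Kcnq1, a channel that KCNE2 joins, was at no more than 0.0784 FPKM in any library.

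Water channel Aqp1 (chromosome 6, 55336432 to 55348555), which sits in the membrane of the epithelium facing the ventricle, was at 2.02 FPKM in F1r, 2.12 in F1i, 2.05 in CAST and 2.64 in B6. The hybrids and CAST were nearly level and B6 stood above them, with a CAST minus B6 difference of -0.26. After rescaling to a common total that difference was -0.02, where the median of all genes was 0.34. The other measured water channels were Aqp4 of astrocytes, at 27.8 FPKM in CAST and 33.5 in B6, and Aqp11, at 3.74 and 4.32 in the same order, and neither was 2-fold apart.

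**Figure D2:**
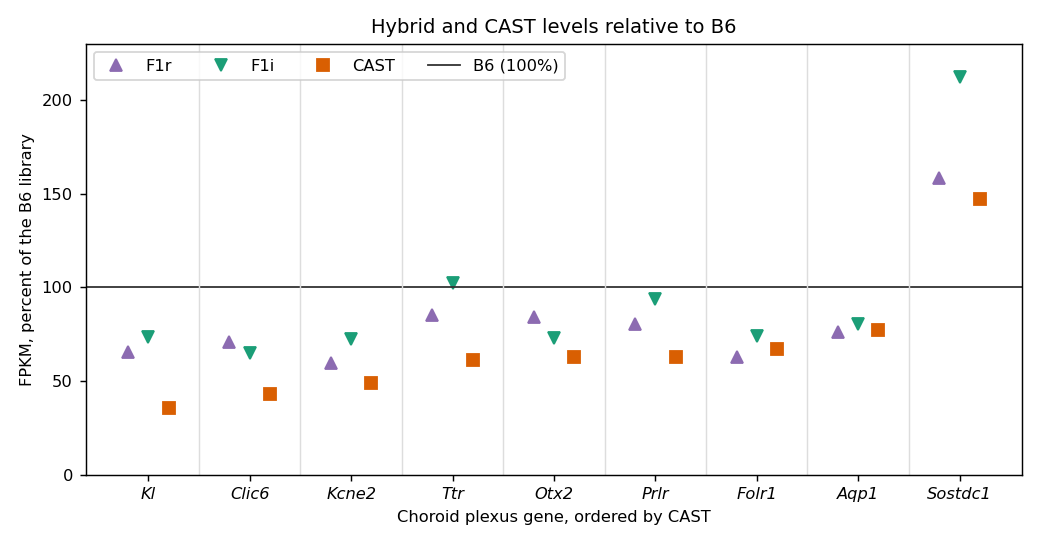
FPKM of each gene as a percent of its B6 value in F1r, F1i and CAST, with B6 as the line at 100%, ordered by the CAST value. Kl is lowest in CAST at 35.6%, and Sostdc1 is the only gene with all 3 points above the line, at 158% in F1r, 212% in F1i and 147% in CAST.

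Sostdc1 (chromosome 12, 36314139 to 36318452), a secreted antagonist of BMP and WNT signals, was the gene that was higher in CAST. It was at 2.97 FPKM in F1r, 3.98 in F1i, 2.76 in CAST and 1.88 in B6, and B6 was the lowest of the 4 libraries. The CAST minus B6 difference was 0.39. Both hybrids were above both strains, and the mean of the hybrids less the mean of the strains was 0.44, the largest such difference among the 9 genes. The 1 annotated transcript (1781 bases, 206 codons) shares 0% of its words with other genes. Of 8 measured BMP and WNT genes none was 2-fold apart between CAST and B6 (median 0.00), with the WNT co-receptor Lrp6 at 12.6 FPKM in CAST and 12.8 in B6.

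Folr1, Otx2 and Prlr had several annotated transcripts, and their sums and their parts differed. Folr1 (chromosome 7, 101858331 to 101870788) encodes folate receptor alpha, which takes folate into the cerebrospinal fluid through this epithelium. Its sum was 2.94 FPKM in F1r, 3.47 in F1i, 3.13 in CAST and 4.66 in B6, a CAST minus B6 difference of -0.46. In CAST, however, 62.4% of the sum was a transcript of 331 bases with 29 annotated codons, listed at 0 in both hybrids and at 1.95 FPKM in CAST and 0.0106 in B6. The 5 transcripts that encode all 255 residues summed to 2.77 FPKM in F1r, 3.39 in F1i, 1.18 in CAST and 4.53 in B6. Their CAST minus B6 difference was -1.35, past the 2-fold rule. This split was chosen after the values were seen. Anapc15, on the opposite strand and overlapping Folr1, was at 8.54 FPKM in F1r, 11.1 in F1i, 10.1 in CAST and 10.8 in B6, and whether the counting kept the strands apart is not given in the sources used here, so Folr1 is uncertain. Otx2 also overlaps a gene on the opposite strand, Otx2os1, but that was at no more than 0.0458 FPKM.

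Otx2 (chromosome 14, 48657677 to 48673819) was at 2.94 FPKM in F1r, 2.54 in F1i, 2.18 in CAST and 3.49 in B6, a CAST minus B6 difference of -0.49. Grouped by annotated coding length, the sum differed between the strains in the group of shorter coding parts. The 3 transcripts of at least 289 codons summed to 1.35 FPKM in F1r, 1.67 in F1i, 1.71 in CAST and 1.73 in B6. The other 5 summed to 1.59 FPKM in F1r, 0.874 in F1i, 0.473 in CAST and 1.75 in B6. That split too was chosen after the values were seen. The transcript of 2284 bases (289 codons) led in each library, at 1.02 FPKM in F1r, 1.08 in F1i, 0.681 in CAST and 1.45 in B6. In the same group, those of 1708 bases (0.620 FPKM in CAST and 0.142 in B6) and 1737 bases (0.411 and 0.145) were higher in CAST. By the depth estimate given below, about 110 fragments in CAST and 220 in B6 lay behind all Otx2 transcripts, so the split is uncertain.

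Prlr (chromosome 15, 10177238 to 10349180) encodes the prolactin receptor, for which this epithelium is a main site in the brain. It was at 1.34 FPKM in F1r, 1.56 in F1i, 1.05 in CAST and 1.66 in B6, and the CAST minus B6 difference was -0.38. The transcript of 9900 bases, which encodes the long receptor of 608 residues, led in all 4 libraries at 0.888 FPKM in F1r, 1.13 in F1i, 0.852 in CAST and 1.03 in B6. The transcripts of 303 and 292 codons labelled protein coding were at 0 throughout, and that of 310 codons reached at most 0.0103 FPKM. Among 9 measured genes of prolactin receptor signalling, only Gh, growth hormone of the pituitary, was 2-fold apart, at 3.29 FPKM in F1r, 0.152 in F1i and 3.28 in CAST and listed at 0 in B6. Jak2, the kinase bound to the receptor, was at 12.5 FPKM in CAST and 7.69 in B6.

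**Figure D3:**
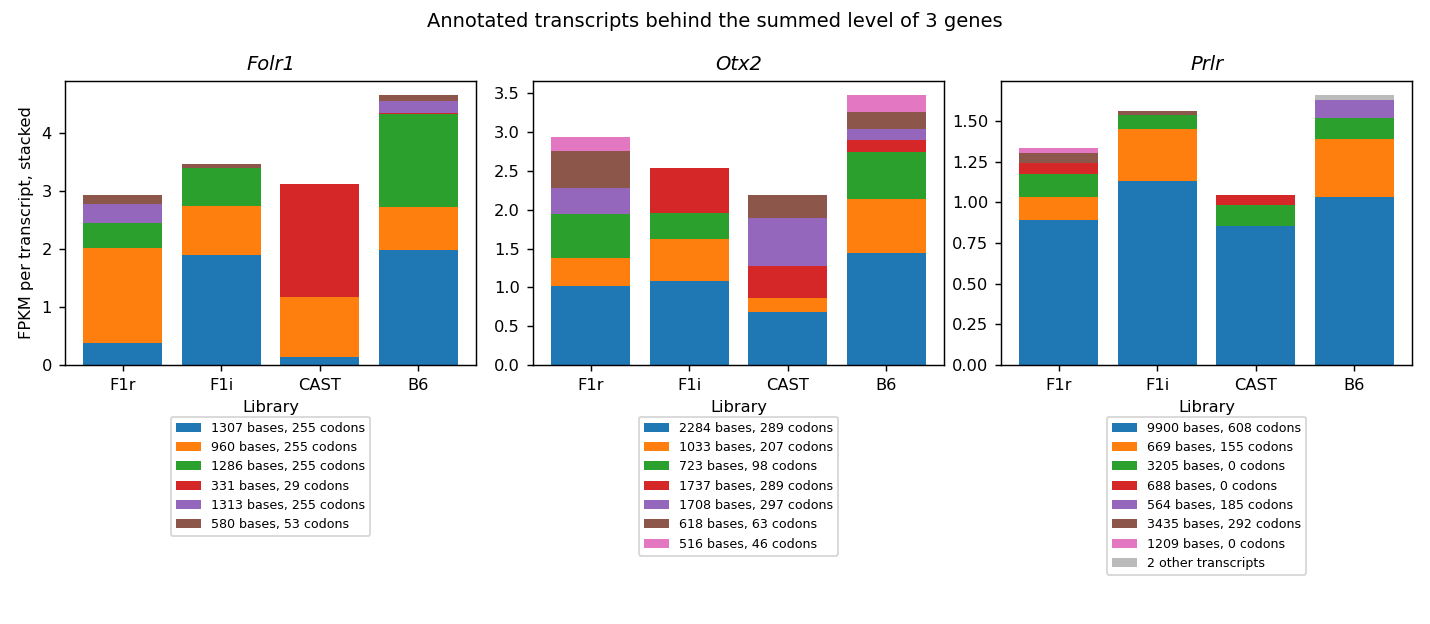
FPKM of the annotated transcripts of Folr1, Otx2 and Prlr, stacked, in F1r, F1i, CAST and B6, with transcript length and annotated codons in the legend (0 codons means no coding part). The transcript of 331 bases is visible only in the CAST bar of Folr1 at 1.95 FPKM, and the transcript of 9900 bases leads Prlr in every library.

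The hybrids were set between the strains to ask whether their levels were intermediate. Both hybrids lay between CAST and B6 for 5 of the 9 genes (Kl, Clic6, Kcne2, Otx2 and Prlr), against 41.3% of all genes compared. F1i exceeded B6 for Ttr, F1r was below CAST for the Folr1 sum and Aqp1, and both hybrids exceeded CAST for Sostdc1. The Folr1 transcripts that encode all 255 residues, a split chosen after the values were seen, had both hybrids between the strains. They were at 2.77 FPKM in F1r, 3.39 in F1i, 1.18 in CAST and 4.53 in B6. Placing each hybrid by FPKM along the line that runs between B6 (0) and CAST (1), the 8 genes whose strains were at least 25% apart on FPKM + 1 had a median position of 0.53 in F1r and 0.58 in F1i, and the 4193 genes chosen in the same way had medians of 0.53 in F1r and 0.45 in F1i. Kl was at 0.54 in F1r and 0.41 in F1i, Clic6 at 0.51 and 0.61, Kcne2 at 0.79 and 0.54, and Ttr at 0.38 and -0.06, in the same order. All these placements use FPKM as deposited and were not repeated with median ratios or a common total. Under a common total, F1r minus F1i moved from -0.26 to 0.01 for Ttr and from 0.15 to 0.36 for Otx2.

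No gene of the 9 was 2-fold apart between F1r and F1i, which carry the same autosomal genotype, against 0.495% of all genes, or between the hybrid mean and the strain mean, against 0.371%. For F1r minus F1i the differences ran between -0.33 (Sostdc1) and 0.15 (Otx2), with a median of -0.13 beside 0.03 for all genes. As deposited, 7 of 9 were lower in F1r, against 41.9% of all genes, but after rescaling to a common total 8 of 9 were higher, with a median of 0.03 where the median of all genes was 0.27, so no direction is given for this comparison. The spread of F1r minus F1i over all genes had an SD of 0.27, and that of CAST minus B6 an SD of 0.56.

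Other genes of the choroid plexus were measured in the same libraries, and how much of each level came from cells outside it was not tested. Of 18 measured genes for secreted, junction and other epithelial proteins, 17 were lower in value in CAST, with a median of -0.35, and 1 passed the 2-fold rule. That was 1500015O10Rik, which encodes a secreted protein made by the epithelium, at 5.43 FPKM in CAST and 12.7 in B6. Of all 13739 genes compared, 44.6% were lower in value in CAST, 2.25% were 2-fold lower and 2.83% higher. With a common total 12 of the 18 were lower, with a median of -0.10, and none passed. Under that scaling the median of all genes was 0.34, and 1.36% were 2-fold lower. With median-ratio scaling 17 of the 18 were lower, with a median of -0.39. Enpp2 passed as well under it, beside 2.46% of all genes 2-fold lower. Enpp2, the secreted enzyme autotaxin, was at 102 FPKM in F1r, 116 in F1i, 70.9 in CAST and 139 in B6. Igfbp2, a binding protein for insulin-like growth factors, was at 26.9 FPKM in CAST and 30.5 in B6. The 13 measured transporters and channels had a median of -0.08, with 8 lower in value and none 2-fold apart. With a common total 3 of the 13 were lower and their median was 0.21, below the 0.34 of all genes. Slc12a2, the sodium, potassium and chloride cotransporter, was at 16.3 FPKM in CAST and 20.2 in B6. The channel Trpm3 was at 11.3 and 14.7, whereas Slc4a10 was at 64.4 and 54.7, in the same order. Slc5a3, a sodium and myo-inositol cotransporter, was at 16.3 FPKM in F1r, 15.9 in F1i, 17.1 in CAST and 10.6 in B6, and its difference of 0.64 was the largest of the 13. Lists of transcription factors of the plexus (4 measured, median 0.03), thyroid hormone and retinol handling (12, -0.05) and folate uptake and enzymes (11, 0.01) had no gene 2-fold apart. Between CAST and B6, 5.08% of all genes were.

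**Figure D4:**
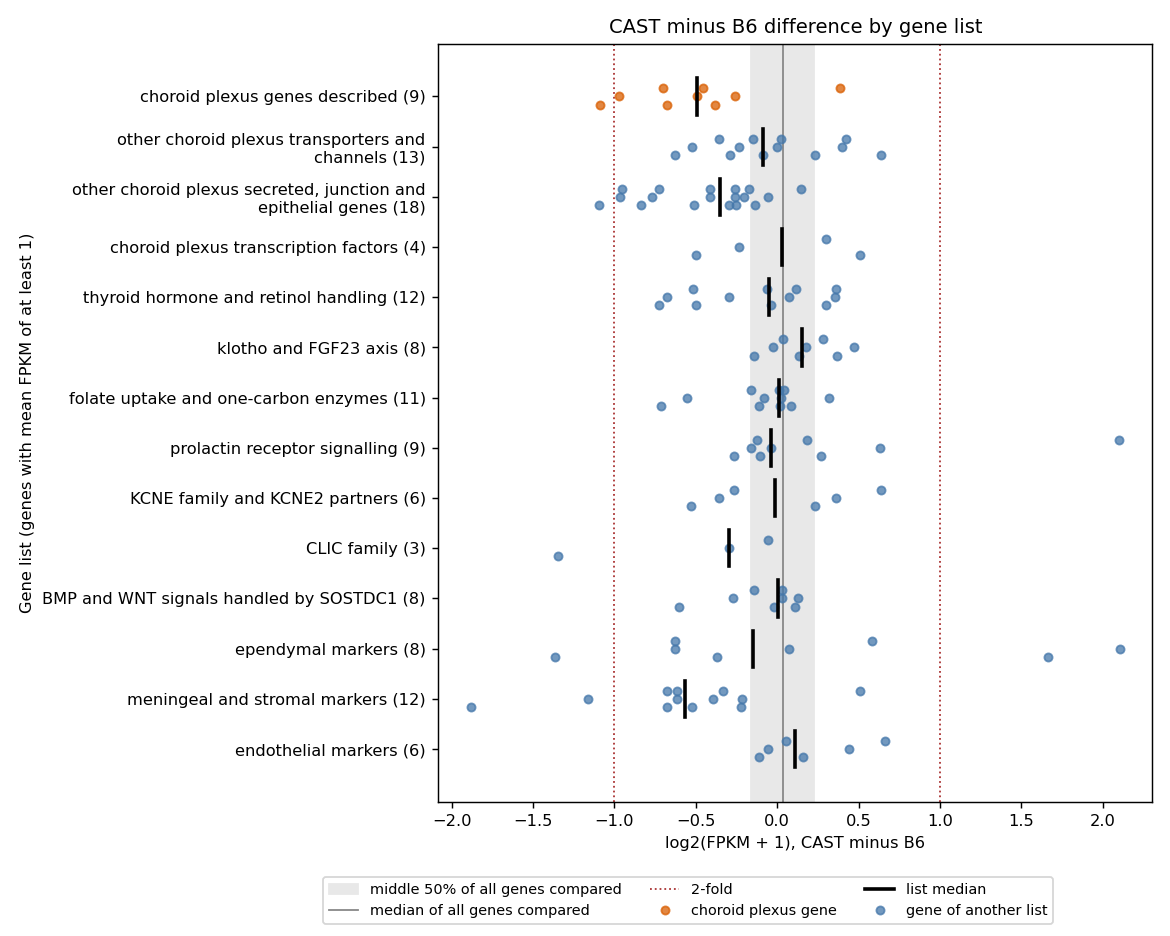
CAST minus B6 difference of log2(FPKM + 1) for each measured gene of the lists with at least 3 such genes, with the number measured in brackets, black bars for list medians, a grey band for the middle 50% of all 13739 genes and dotted lines at 2-fold. Of the 9 choroid plexus genes, 8 lie left of the grey median line and Kl lies past 2-fold.

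Markers of cells that adjoin the plexus were measured too, and their part in these differences was not tested. All 12 meningeal and stromal markers were measured, and 11 were lower in value in CAST (median -0.57). Mgp (10.7 FPKM in CAST and 42.2 in B6) and Igfbp6 (8.21 and 19.6) passed the rule. Of all genes compared, 44.6% were lower in value in CAST and 2.25% were 2-fold lower. With a common total 10 of the 12 were lower, the median was -0.32, and Mgp alone passed. Under that scaling the median of all genes was 0.34, and 1.36% were 2-fold lower. The 12 markers summed to 69.4 FPKM in F1r, 68.5 in F1i, 51.6 in CAST and 110 in B6, with none at 0. Ependymal markers differed in both directions. Of 8 measured, Mia was lower (0.624 FPKM in CAST and 3.19 in B6), Rsph1 (10.7 and 1.71) and Cfap54 (5.58 and 1.08) were higher, and the ependymal factor Foxj1 was at 4.27 and 4.02; the 14 listed summed to 24.96 FPKM in F1r, 34.2 in F1i, 37.3 in CAST and 25.9 in B6. Endothelial markers had a median of 0.11 over 6 genes, with none 2-fold apart, and summed to 27.6, 27.5, 33.5 and 25.01 FPKM in F1r, F1i, CAST and B6. Pituitary and pineal markers summed to 7.11, 4.12, 9.12 and 2.51 FPKM in that order, and Gh was the only one past the rule of the 2 measured. Cga, the shared alpha subunit of pituitary hormones, had a mean under 1 FPKM and was at 0.209 FPKM in F1r, listed at 0 in F1i, and at 1.69 FPKM in CAST and 0.051 in B6. Eye and liver markers, for tissues that make transthyretin too, summed to at most 2.38 FPKM in any library, with CAST the lowest, and the lipoprotein gene Apoa2 was the only one measured.

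The genes whose profile over the 4 libraries was most like that of Ttr were Sergef, Zdhhc22, Wdr73, Alg14, Hist2h2bb and Lhx1os, at Euclidean distances of 0.10 to 0.14 on log2(FPKM + 1) centred over the libraries, among 8641 genes with a mean of at least 5 FPKM. Among those nearest the median profile of the 9 were Bad, Lamb2, Yipf1, Emc1 and Acyp1, at 0.035 to 0.041. With 4 points, a short distance says only that the values follow each other.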

How the data were processed

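Per the labels' protocols, RNA of 5 pooled left hemispheres per group was made into strand-specific libraries; the series design speaks of whole brain. For each library the authors deposited a table whose values are FPKM of single transcripts. The submitters' processing notes name Cufflinks 2.2.1 and Cuffdiff, HISAT2, Trimmomatic 0.36, bcl2fastq 2.20 and build mm9, without their roles. Coordinates in the tables fit GRCm38, since GENCODE M21 holds 99.5% of the 128603 transcripts and 97.2% have the same position there. Whether reads were counted by strand, or a CAST genome was used, is not given in the sources used here.

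After removing small RNAs by name and any transcript shorter than 200 bases, FPKM was summed per gene, and 13739 genes with a mean of at least 1 FPKM over the 4 libraries were compared on log2(FPKM + 1) and counted at 2-fold, with no test. Total FPKM was 1942710 in F1r, 2347990 in F1i, 1857428 in CAST and 2357188 in B6. Read counts are not in the tables, but low values of transcripts over 2000 bases cluster at the worth of 1 fragment, so that, with B6 at 1, depth was estimated as 0.724 for F1r, 0.793 for F1i and 0.725 for CAST. By that estimate the fewest fragments behind a gene were about 56 for Folr1 in CAST, against about 240 in B6, a counting error near 13.4%. Kcne2 had about 70 in CAST and 200 in B6, and Kl about 260 and 1000. This covers counting error only, and no intervals are given.

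The 9 genes, the 16 other lists and the comparisons were chosen with earlier results of these data known. Named genes were the 9, listed genes at least 2-fold apart, up to 4 of each list by level, genes overlapping the 9 and the 6 nearest profiles to Ttr and to the median, and Fgf23, Kcnq1 and Cga were added after their values were seen. A gene that this rule names is not reported here. The listed gene 2900040C04Rik was not analysed here. The words of 31 bases of the genes' GENCODE M21 transcripts were searched in those of all other genes. The scripts used pandas 2.3.3, numpy 2.4.6, scipy 1.17.1 and matplotlib 3.10.9 under Python 3.11.15, and the computation was tested on simulated data.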

Additional observations from a re-analysis of the deposited data

How the results depend on the processing

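The median CAST minus B6 difference of the 9 genes was below 0 under all 8 alternatives, but not all of these could change it. Dropping the filter on low values, or summing all transcripts, left every value of the 9 genes unchanged, with the median at -0.49. All 9 had already passed that filter, and none of their transcripts had been removed, so these outcomes were fixed beforehand and do not test stability. A mean of at least 5 FPKM left Ttr alone, at -0.70. Under the other alternatives the median lay between -0.25 and -0.69, with the 9 or 8 genes that passed. After rescaling to a common total it was -0.25, beside 0.34 for all genes. The number of the 9 genes at least 2-fold lower in CAST, 1 as reported (Kl), was 2 (Kl and Clic6) with an added constant of 0.1, beside 3.57% of all genes, and with median-ratio scaling, beside 2.46%. It was 2 (Kl and Folr1) with the highest transcript of each gene, beside 2.75%, and with transcripts of at least 400 bases, an alternative added after the data were seen, beside 2.14%. It was 0 with a mean of at least 5 FPKM, beside 1.69%, and with a common total, beside 1.36%. Of the other lists, the median turned positive with a common total for transporters and channels (0.21), thyroid hormone and retinol handling (0.27), prolactin receptor signalling (0.21), the KCNE family (0.31), aquaporins (0.09) and ependymal markers (0.09). Each of these medians was below the 0.34 of all genes. The median F1r minus F1i difference was 0.031 after rescaling to a common total, and 1 gene, Folr1, was 2-fold lower with the highest transcript only (-1.07), beside 0.388% of all genes. The 68 genes 2-fold apart between F1r and F1i were 183 with the constant of 0.1, 102 with a common total and 224 with all transcripts summed, and the 51 between hybrid and strain means were 138, 58 and 246. The median position was 0.47 in F1r and 0.51 in F1i on the log2 scale, and 8 of 9 genes had the same leading transcript in all 4 libraries by FPKM and by FPKM times length. No replicate can be left out with 1 library per group. No paired analysis was possible because each group has 1 library.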
